A study of Mus musculus with 5 samples.

Results

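The cytosolic ribosomal protein genes are the genes for the protein parts of the ribosome outside mitochondria, and they were chosen by name: every row of the count matrix called Rpl or Rps with a subunit number, plus Rplp0, Rplp1, Rplp2 and Rpsa. The rule found 84 genes of 21995, of which 52 carry large subunit names and 32 carry small subunit names, with Rplp0 to Rplp2 in the first set and Rpsa in the second. Kinases such as Rps6ka1, pseudogenes by name and mitochondrial ribosome genes are not members. All 84 were detected, with 44 to 187953 unique molecular identifiers (UMIs, 1 per captured RNA molecule) over the kept cells and a median of 36670. For the tests, 82 members passed the filter on low counts, and Rpl10l and Rpl39l did not.

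The study sorted live (DAPI-) CD11b+ Ly6G+ cells, a gate for neutrophils, from the intestine, spleen, liver, lung, marrow and blood of C57BL/6 mice at steady state. The young animals are given as 10 weeks of age in the sample labels but as 8 weeks in the design text, and the old animals as 20 months. Cells were multiplexed on 2 BD Rhapsody cartridges, called pools YO1 and YO2 here, and counted as whole transcriptomes. The barcodes in the matrix carry only the pool, so both ages and all tissues are mixed in every value below, and age and tissue were not analysed here.

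A ribosome joins a small subunit, which reads the mRNA, to a large subunit, which makes the peptide bond. Each ribosomal protein is normally made in step with the others, and their mRNAs in mammals begin with a run of pyrimidines, the terminal oligopyrimidine tract, through which their translation is controlled together. Granulocyte precursors divide and make granule proteins in the bone marrow, whereas mature neutrophils no longer divide and have little cytoplasmic ribosomal material.

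Cells were placed in 6 classes by fixed gates. Cycling cells had at least 2 UMIs of Mki67 and Top2a together, Ltf-high cells at least 5 of Ltf (lactoferrin, a secondary granule protein), and Ngp-positive cells at least 10 of Ngp (neutrophilic granule protein) with fewer than 5 of Ltf. Mature neutrophils had at least 2% of UMIs on S100a8 and S100a9 with fewer than 3 of Ngp. Lymphocytes and macrophages were gated on B, T or NK cell receptor genes and on C1qa, C1qb and C1qc. These 2 classes lie outside the labelled sort. High levels of the gate genes follow from the gates, so classes were read on listed markers that the gates did not use. Values are given as CPM (UMIs scaled to a common total). A list of 9 mature neutrophil markers summed to 36261 and 32974 CPM in mature cells of YO1 and YO2. Ngp-positive cells held more of it, 69409 and 74289 CPM, Ltf-high cells 27499 and 23743 CPM, and cycling cells 3483 and 4326 CPM. Lymphocytes held 3306 and 4695 CPM and macrophages 6174 and 7454 CPM. The cycling values thus lay within the lymphocyte range and under the macrophage values. By this list mature cells do not rank above Ngp-positive cells, so the name mature rests on the gate. Pax5 and Ebf1, B cell transcription factors, summed to 759 and 888 CPM in lymphocytes of YO1 and YO2, against 2.15 and 1.75 CPM in mature cells. Adgre1, Vsig4, Mrc1 and Apoe summed to 6733 and 7401 CPM in macrophages, against 343 and 212 CPM in mature cells.

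Filtering kept 19505 YO1 cells (median 1231 UMIs) and 17215 YO2 cells (median 1454 UMIs). The mature class held 10175 and 9843 cells, the cycling class 792 and 146, the Ltf-high class 2198 and 445, the Ngp-positive class 437 and 32, the lymphocytes 373 and 536, and the macrophages 222 and 496. The pools share 406 cell labels, which are 1.99% of the labels of YO1 and 2.29% of those of YO2. The cycling class was not alike in the pools: cells with at least 10 UMIs of Ngp made up 81.4% of it in YO1 and 41.8% in YO2, and the 5 azurophil granule markers summed to 4499 CPM in YO1 and 26.3 CPM in YO2. The fits remove the mean difference between the pools, so p-values rest on how far differences between classes vary from pool to pool. Nothing states that the pools are separate animals, so that variation may be technical.

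Promoter windows of 8 named members are shown because the results turn on these genes, the first 4 with a higher and the last 4 with a lower share of the family in mature than in cycling cells. Each window is 60 bases before and 10 after the RefSeq start, on the GRCm38.p6 build, 5′ to 3′ on the gene's strand. Capitals mark CTTTC, a pyrimidine run, and CCGGAAG, a sequence that ETS factors can bind, each looked for on both strands.
Rps9, chr7:3703981-3704050, plus strand: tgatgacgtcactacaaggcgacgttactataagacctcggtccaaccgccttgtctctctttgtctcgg
Rps27, chr3:90213639-90213708, minus strand: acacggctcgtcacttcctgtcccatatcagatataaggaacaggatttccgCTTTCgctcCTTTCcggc
Rpl37, chr15:5116553-5116622, plus strand: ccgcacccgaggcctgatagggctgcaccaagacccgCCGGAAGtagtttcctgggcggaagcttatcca
Rpl3l, chr17:24727766-24727835, plus strand: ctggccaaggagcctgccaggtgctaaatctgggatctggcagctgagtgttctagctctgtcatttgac
Rpsa, chr9:120127706-120127775, plus strand: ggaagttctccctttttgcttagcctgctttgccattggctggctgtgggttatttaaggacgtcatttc
Rpl10a, chr17:28328411-28328480, plus strand: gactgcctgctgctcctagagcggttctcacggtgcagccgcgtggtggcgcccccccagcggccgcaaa
Rpl12, chr2:32961652-32961721, plus strand: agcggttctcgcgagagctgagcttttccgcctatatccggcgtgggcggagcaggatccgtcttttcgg
Rps18, chr17:33955656-33955725, minus strand: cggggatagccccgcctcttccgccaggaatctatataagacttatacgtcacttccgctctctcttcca
Of these windows, Rps27 holds CTTTC at 2 places and Rpl37 holds CCGGAAG once. Over the whole family, 64 of 84 members matched the promoter table, with 76 windows. CTTTC lay on the gene's own strand within 30 bases of the start in 30.3% of member windows, against 7.93% of all 32851 windows, and CCGGAAG lay on either strand of the 300-base window in 35.5% of member windows, against 8.86% of all windows. These are matches of letters. Rps27a and Rpl3 are named only.

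Ribosomal protein genes took a larger share of UMIs in lymphocytes, macrophages and cycling cells than in Ltf-high, Ngp-positive and mature cells. The share was 5.40% and 5.75% in cycling cells of YO1 and YO2, 2.01% and 1.92% in Ltf-high cells, 1.68% and 1.34% in Ngp-positive cells, and 2.32% and 2.21% in mature cells. Lymphocytes held 11.95% and 11.91%, and macrophages 7.28% and 6.60%. As means over the pools these were 5.58% ± 0.248 in cycling cells, 1.96% ± 0.0635 in Ltf-high cells, 1.51% ± 0.238 in Ngp-positive cells and 2.27% ± 0.0796 in mature cells, with 11.9% ± 0.0263 in lymphocytes and 6.94% ± 0.481 in macrophages (SD, n = 2 pools each). On this measure the pool values of the classes did not overlap, but the order of Ltf-high and mature cells depended on the setting. Without mitochondrial and gate genes, mature cells held 2.52% and 2.35%, against 2.57% and 2.45% in Ltf-high cells. With doubled gates they held 1.99% and 1.95%, against 2.08% and 1.94%, and with mature cells under 2000 UMIs 1.99% and 1.96%, against 2.01% and 1.92%. No test of a share was made, and an exact permutation test of 2 pools against 2 could not have reached 0.05.

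**Figure D1:**
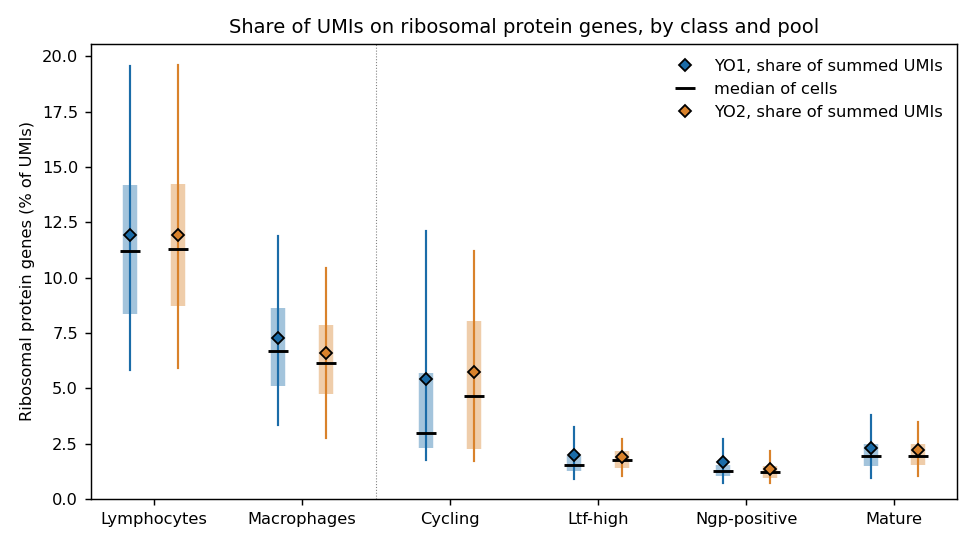
Percent of UMIs on ribosomal protein genes (vertical axis) in 6 cell classes (horizontal axis) of pools YO1 and YO2. Diamonds give the share of summed UMIs, dashes the median of cells, thick bars the quartiles and thin lines the 5th to 95th percentile of cells. Lymphocytes lie highest, at 11.95% and 11.91% of summed UMIs, and the Ngp-positive class lowest, at 1.68% and 1.34%.

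The cells of the cycling class were spread widely. Those with at least 10 UMIs of Ngp held 3.88% in YO1 and 2.54% in YO2. Those with under 10 UMIs of Ngp and under 5 of the azurophil markers held 8.83% and 7.86%. They made up 12.1% of the class in YO1 and 58.2% in YO2. The 51 cells of YO1 with under 10 UMIs of Ngp and at least 5 of the azurophil markers held 13.4%. No such cell was found in YO2. The cycling gate asked for no neutrophil marker, and whether all cycling cells were neutrophil precursors was not tested. The median cell of the whole class held 2.99% in YO1 and 4.67% in YO2. Depth also differed, with median UMIs of 6194 and 7169 in cycling cells and 1024 and 1345 in mature cells. Mitochondrial genes took 3.97% and 3.96% of UMIs in cycling cells, against 1.31% and 0.849% in mature cells. The part of depth and of mitochondrial share in these values was not tested.

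Most members fell in mature neutrophils relative to cycling cells. Of 82 tested, 52 were lower and 4 were higher at an edgeR adjusted p under 0.05, where 32% of all 10472 tested genes were lower and 30.3% higher. The members' median log2 fold change was -0.81, against -0.09 over all genes. Between Ltf-high and cycling cells the members' fall was already present: 65 were lower and 0 higher (24.7% and 19.5% of all genes), with a median of -1.04 against -0.11 over all genes. Both comparisons share the cycling sums. Without the Ltf-high cells of YO1, and likewise without those of YO2, 39 members were lower. The cycling class was also limited to cells with at least 10 UMIs of Ngp, a setting chosen after the data were seen. Then 31 members were lower and 9 higher in mature cells, and 37 were lower and 1 higher in Ltf-high cells. The shares of all genes above belong to the main fit, so the counts of these refits have no such share beside them. Total-UMI scaling moved the median of all genes by -0.74 in mature against cycling cells and by -0.58 in Ltf-high against cycling cells, and the median of the members stayed below that of all genes under both.

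**Figure D2:**
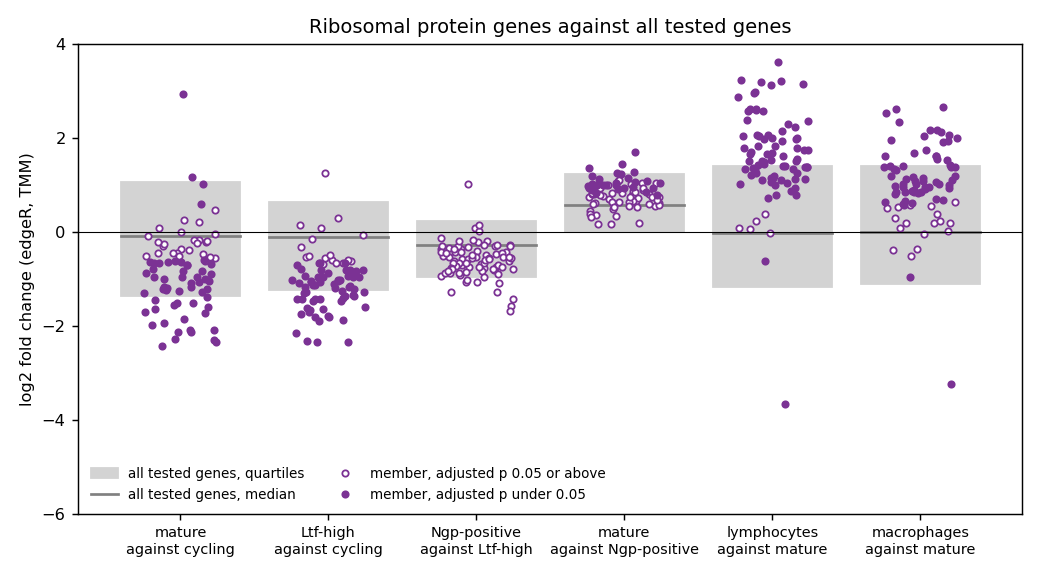
Log2 fold changes from edgeR with TMM scaling (vertical axis) of 82 ribosomal protein genes in 6 comparisons (horizontal axis). Filled points passed an adjusted p under 0.05, open points did not, and grey boxes with a line give the quartiles and the median of all 10472 tested genes. Members lie mostly below 0 in mature and in Ltf-high cells against cycling cells, and mostly above 0 in lymphocytes and macrophages against mature cells.

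Fewer members were called between later stages, as were fewer of all genes, so the counts do not rank the size of the differences. Between Ngp-positive and Ltf-high cells edgeR called 0 members higher and 0 lower (0.487% and 1.22% of all genes), with 36 members at an unadjusted p under 0.05 (43.9%, against 17.7% of all genes), and DESeq2 called 14 lower (2.59% of all genes). Only 32 cells of YO2 were Ngp-positive. Between mature and Ngp-positive cells 30 members were higher and 0 lower (9.44% and 2.38% of all genes), with a median of 0.84 against 0.57 over all genes. That count was not stable when 1 sum of these classes was left out, and such refits have no share of all genes beside them.

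Against mature neutrophils, lymphocytes had 75 members higher and 2 lower, where 30.5% of all genes were higher and 30.5% lower, with a median of 1.52 against -0.01 over all genes. Macrophages had 61 higher and 2 lower (29.9% and 30.8% of all genes), with a median of 0.98 against -0.01. The macrophage count was lower without the mature cells of YO1, a refit with no share of all genes beside it. Total-UMI scaling moved the median of all genes by 1.02 in lymphocytes and 0.86 in macrophages against mature cells, and DESeq2 by 0.72 and 0.70, and TMM signs near 0 change with that common shift, that of Rps9 in lymphocytes among them. In each comparison the 2 lower genes were Rps9 and Rpl3l, and the comparisons share the mature sums. Within the lymphocyte class, cells of the B cell gate held 11.6% and 11.2% of UMIs on the family and cells of the T or NK gate 12.9% and 15.9%.

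Some members departed from the family total, that is, changed their share of the family's own UMIs. Such shares add to a fixed total, so a rise of some members lowers the shares of the others. In mature against cycling cells the members' median family-scaled log2 change was -0.26, and the part of this tie in the counts was not tested. In mature against cycling cells 12 members took a higher share and 35 a lower share in edgeR scaled to the family total (41.7% and 21.8% of all genes on that scale), and 41 of 82 lay within 0.5 log2 units of no change. In Ltf-high against cycling cells 9 were higher and 22 lower (47.7% and 11% of all genes), 31 in all. Fewer departed without the Ltf-high cells of YO1, and 12 with the Ngp-limited cycling cells, refits with no share of all genes beside them. Between Ngp-positive and Ltf-high cells 0 departed, with 11 at an unadjusted p under 0.05, which is 13.4% of members against 20.4% of all genes (5.55% of all genes were higher and 1.16% lower). In mature against Ngp-positive cells 2 were lower, Rpl23a and Rps4x (1.57% of all genes higher, 8.61% lower), and neither was called when any 1 of the 4 sums was left out. In lymphocytes against mature cells 30 members took a higher and 12 a lower share (12.4% and 58.2% of all genes), and in macrophages against mature cells 31 and 11 did (18.6% and 47.6%). Fewer departed in macrophages without the mature cells of YO2, a refit with no share of all genes beside it.

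**Figure D3:**
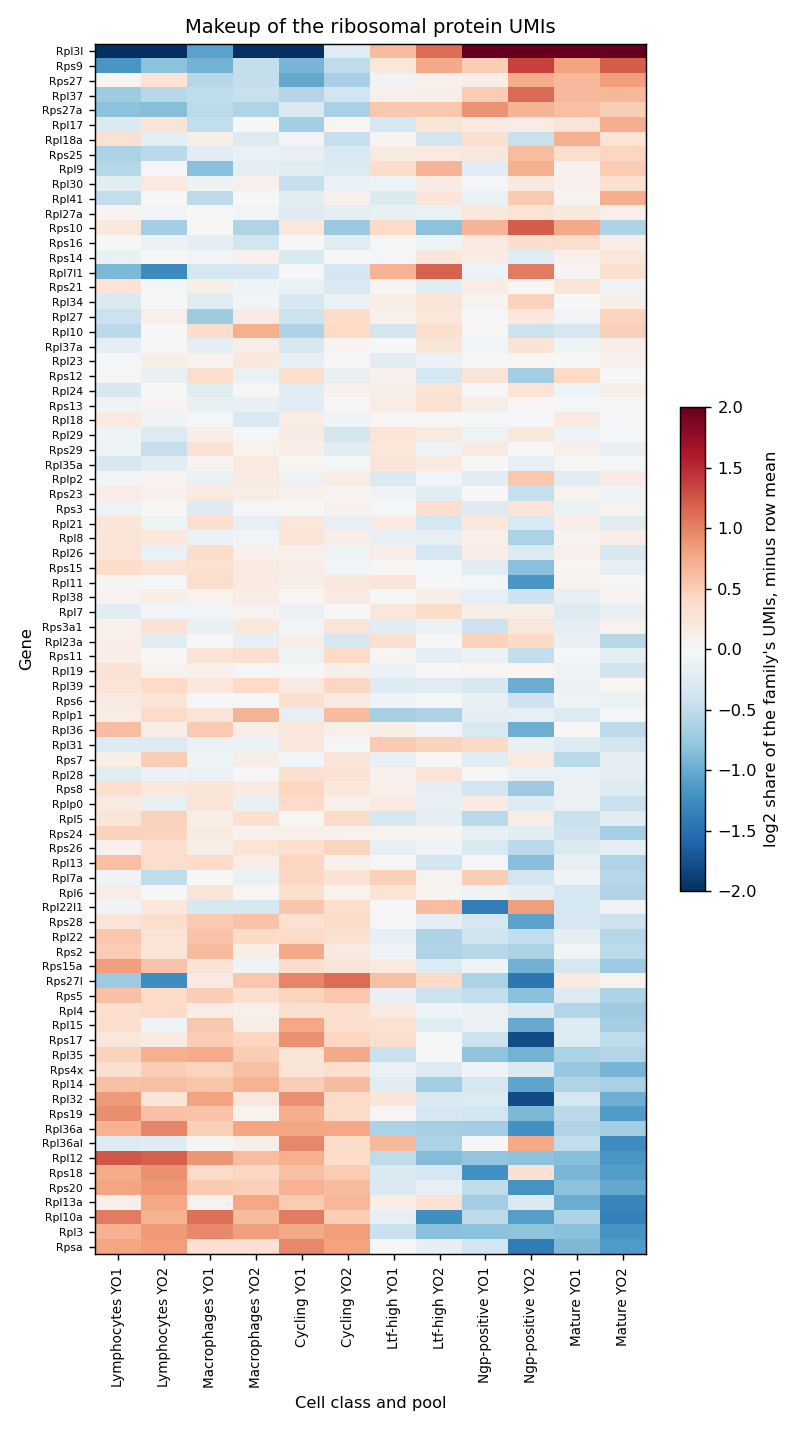
Share of the family's UMIs taken by each of 82 members (rows) in 6 classes and 2 pools (columns), as log2 minus the row mean, with rows ordered by the family-scaled change in mature against cycling cells. Rpl3l, Rps9 and Rps27 at the top are high in mature columns, and Rpsa, Rpl3 and Rpl10a at the bottom are low there.

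Among small subunit proteins, Rps9 (a member of the S4 family, near the mRNA entry of the small subunit) had the highest upward departure after Rpl3l in mature against cycling cells. It took 9.83% and 13.01% of the family's UMIs in mature cells of YO1 and YO2, against 2.97% and 3.97% in cycling cells. Ltf-high cells held 6.60% and 9.51%, and Ngp-positive cells 7.97% and 14.5%. Lymphocytes held 2.52% and 3.18% and macrophages 2.93% and 4.07%, so neither overlapped the mature values. As a share of all UMIs Rps9 was closer to level, at 2283 and 2875 CPM in mature cells, against 1606 and 2286 CPM in cycling cells. Its family-scaled log2 change was 1.72 ± 0.18 (SE) in mature against cycling cells, with an edgeR adjusted p of 6.37e-06. With TMM scaling it was 1.17 ± 0.23. In lymphocytes against mature cells the TMM change was -0.63 ± 0.23, and it was 0.40 with total UMIs and 0.087 with DESeq2, scalings that moved all genes by 1.02 and 0.72. The family-scaled change was -1.99 ± 0.18. Rps9 lies at chr7:3703993-3706897 on the plus strand (GRCm38) and overlaps no other coding gene.

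Rps27a, which encodes a ubiquitin fused to a small subunit protein, took 5.36% and 4.996% of the family in mature cells, against 2.90% and 2.26% in cycling cells. It had reached 5.16% and 5.12% in Ltf-high cells. Its family-scaled change was 1.003 ± 0.17 in Ltf-high against cycling cells (edgeR adjusted p 0.000281), while its TMM change of 0.09 did not pass and was -0.50 with total UMIs, which moved all genes by -0.58. Rps27, a zinc-finger protein of the small subunit, took 1.48% and 1.68% in mature cells, against 0.464% and 0.603% in cycling cells, a family-scaled change of 1.57 ± 0.17 (edgeR adjusted p 6.21e-06). Rps27a overlaps Clhc1 on the other strand, and whether counting used strand is not given in the sources used here.

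Rpsa, the small subunit protein also known as the laminin receptor, moved the other way. It took 0.273% and 0.232% of the family in mature cells, against 0.988% and 0.884% in cycling cells, and 0.507% and 0.450% in Ltf-high cells. Lymphocytes held 0.874% and 0.905%. Its levels were 63.4 and 51.2 CPM in mature cells, against 534 and 509 CPM in cycling cells. The family-scaled change was -1.89 ± 0.18 in mature against cycling cells (edgeR adjusted p 3.31e-06). Rps18, near the head of the small subunit, took 0.115% and 0.100% in mature cells, against 0.330% and 0.310% in cycling cells.

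Large subunit members showed both directions. Rpl37 took 4.66% and 4.72% of the family in mature cells, against 1.98% and 2.27% in cycling cells, with a family-scaled change of 1.15 ± 0.18 (edgeR adjusted p 0.000167). Rpl3, which lies near the peptidyl transferase center, took 0.188% and 0.149% in mature cells, against 0.573% and 0.605% in cycling cells. Rpl10a, near the site where spent tRNA leaves, took 0.160% and 0.0970%, against 0.506% and 0.349%. Rpl12, at the base of the stalk, took 0.264% and 0.212%, against 0.784% and 0.614%. The family-scaled changes were -1.81 ± 0.19 for Rpl3, -1.75 ± 0.20 for Rpl10a and -1.55 ± 0.16 for Rpl12. In lymphocytes against mature cells Rpl12 had the highest family-scaled change among named members, 2.24 ± 0.16 (edgeR adjusted p 1.57e-07), at 1.13% and 1.10% of the family in lymphocytes. In macrophages against mature cells Rpl3 was the highest, at 1.89 ± 0.19 (edgeR adjusted p 3.61e-06).

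The makeup of the cycling class bears on these values. In cycling cells with at least 10 UMIs of Ngp, Rps9 took 3.52% and 6.61% of the family in YO1 and YO2, Rpl10a 0.407% and 0.199%, and Rpl12 0.603% and 0.289%, so the YO2 values moved most. Against those cells the family-scaled changes in mature cells were 1.23 ± 0.25 for Rps9, 1.24 ± 0.24 for Rps27, 0.61 ± 0.23 for Rps27a and 1.07 ± 0.24 for Rpl37. Those of the lower members were -1.90 ± 0.23 for Rpsa, -1.54 ± 0.22 for Rpl3, -1.27 ± 0.24 for Rpl10a and -0.95 ± 0.24 for Rpl12. Each of these 8 kept its direction and an edgeR adjusted p under 0.05.

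**Figure D4:**
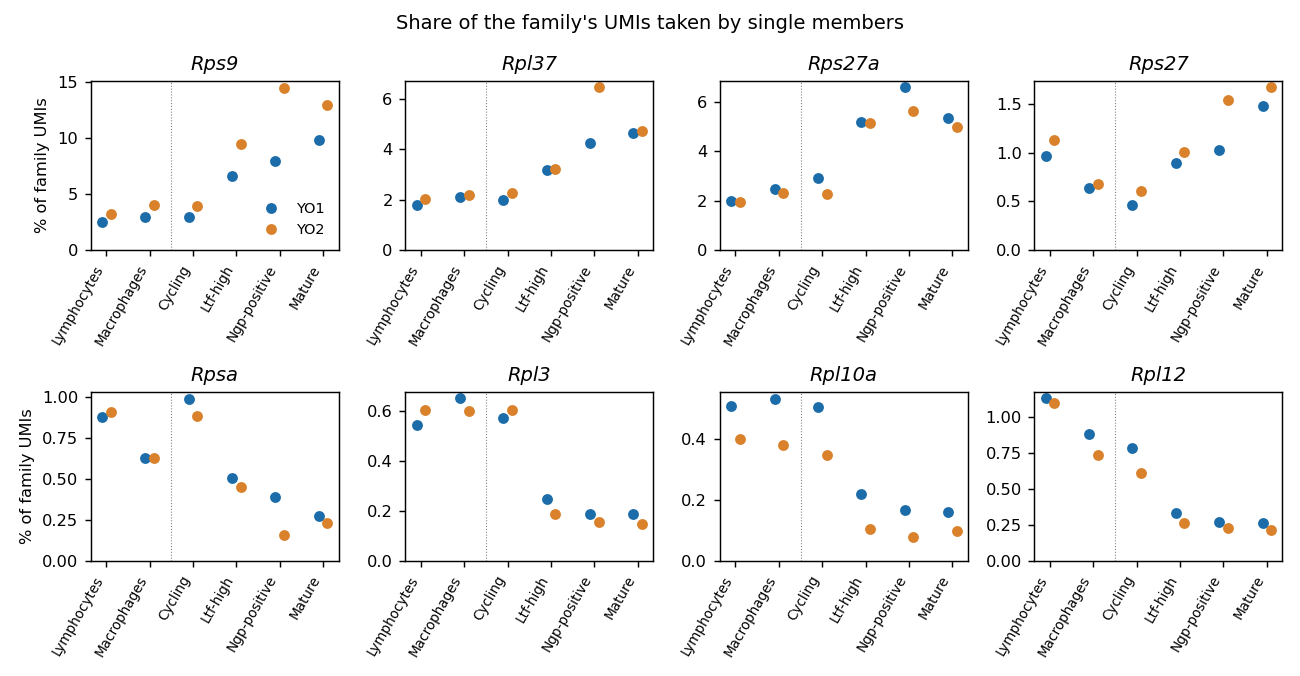
Percent of the family's UMIs taken by 8 members (vertical axes, each with its own scale from 0) in 6 classes (horizontal axes), 1 point per pool. Rps9, Rpl37, Rps27a and Rps27 are high in mature cells, where Rps9 takes 9.83% and 13.01%, and Rpsa, Rpl3, Rpl10a and Rpl12 are low there.

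Together Rps9, Rpl37, Rps27a and Rps27 took 21.3% and 24.4% of the family's UMIs in mature cells, against 8.32% and 9.10% in cycling cells. They took 7.30% and 8.30% in lymphocytes and 8.12% and 9.26% in macrophages. Small subunit members held 56.3% and 56.5% of the family in mature cells, against 53.8% and 53.0% in cycling cells. Without Rps9 those shares were 51.5% and 50.03%, against 52.3% and 51.1%. Shares of UMIs are not divided by gene length and do not rank genes by molecules per length.

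Paralogs gave a further contrast. Rpl3l, the muscle-enriched paralog of Rpl3, was the member with the largest family-scaled change, 3.48 ± 0.46 in mature against cycling cells (edgeR adjusted p 3.64e-05), although it had 1187 UMIs in all. It made up 33.2% and 40% of the pair with Rpl3 in mature cells, against 0.827% and 2.79% in cycling cells. Lymphocytes had 0.224% and 0.676%, also far under the mature values. Its level was 21.7 and 22.0 CPM in mature cells and 2.58 and 9.99 CPM in cycling cells. Rpl3l ends 499 bases before Msrb1 on the same strand, and Msrb1 (a methionine sulfoxide reductase) had 3734 and 3551 CPM in mature cells, against 652 and 755 CPM in cycling cells. The part of Msrb1 transcripts in the Rpl3l counts was not tested.

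Rps27l, the paralog of Rps27, made up 7.55% and 6.21% of the pair in mature cells, against 30.8% and 27.5% in cycling cells. Rpl22l1 was 22.6% and 31.4% of its pair with Rpl22 in mature cells, against 26.7% and 25% in cycling cells, ranges that overlap. Rpl7l1 was 4.24% and 2.98% of its pair with Rpl7 in lymphocytes, against 8.29% and 9.02% in mature cells. Rps4l has no row. The stalk proteins Rplp0, Rplp1 and Rplp2 fell with TMM scaling in mature against cycling cells, by 1.07, 0.96 and 0.60, and only Rplp0 also departed from the family, at -0.53 ± 0.15 (edgeR adjusted p 0.009). Among members with at least 1 UMI in mature cells of each pool, the smallest shares there were those of Rpl10l, Rpl36al and Rpl13a, and Rpl39l had 0 UMIs in YO1 and 12 in YO2.

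Mature cells with many UMIs differed from the rest. Those with at least 4000 UMIs, 98 cells of YO1 and 189 of YO2, held 5.95% and 4.45% of UMIs on the family, against 2.11% and 2.29% in mature cells with at least 200 but under 1000 UMIs. Their monocyte markers summed to 2993 and 2165 CPM, against 494 and 417 CPM, and the endothelial markers to 1826 and 22.0 CPM, against 47.3 and 6.2 CPM. Rps9 took 4.37% and 6.90% of the family in the deep cells, against 11.6% and 14.5%, and Rpsa took 0.677% and 0.571%, against 0.142% and 0.162%. With mature cells limited to under 2000 UMIs, a setting chosen after these values were seen, Rps9 took 11.4% and 14.5% and Rpsa 0.176% and 0.164% of the family, so their shift from cycling cells was as large without the deep cells.

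**Figure D5:**
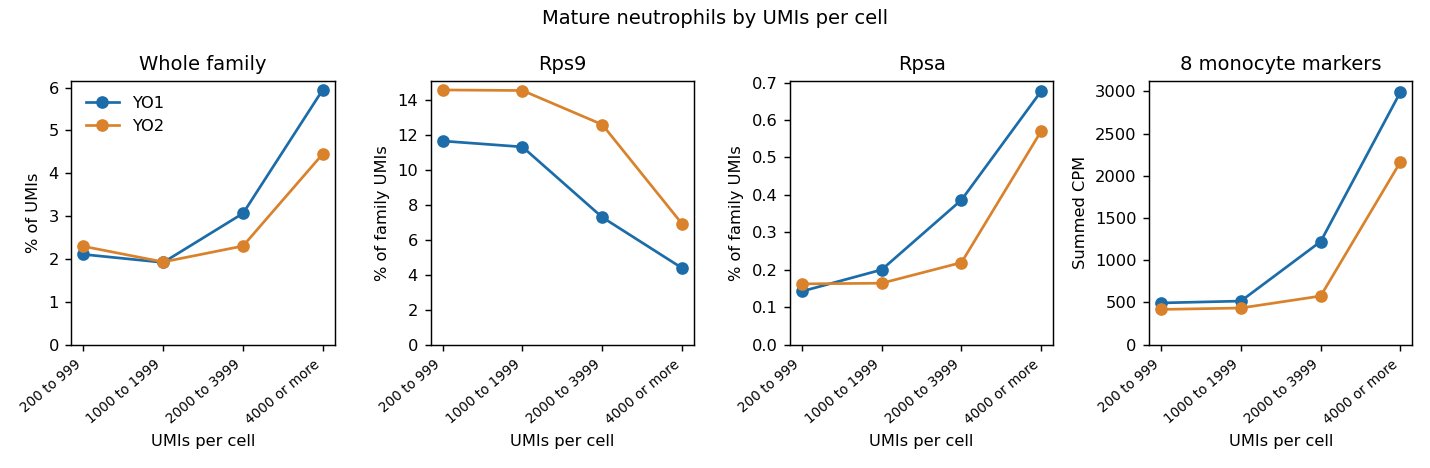
Mature neutrophils grouped by UMIs per cell (horizontal axes) in pools YO1 and YO2: percent of UMIs on the family, percent of the family on Rps9 and on Rpsa, and summed CPM of 8 monocyte markers (vertical axes, from 0). The deepest cells have the highest family share, 5.95% and 4.45%, and the highest monocyte marker sums.

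Other genes of the translation machinery were read from lists chosen by function, beside 32% of all genes lower and 30.3% higher and a median of -0.09 over all genes in mature against cycling cells. Of 35 tested ribosome biogenesis genes, 29 were lower and 2 higher in mature against cycling cells, with a median of -1.997. Myc, a transcription factor that drives ribosome production, had a change of -3.77 ± 0.46 (edgeR adjusted p 1.96e-05). Its level was low, at 0.909 and 0.648 CPM in mature cells of YO1 and YO2, against 15.8 and 21.8 CPM in cycling cells. Of 19 elongation and other terminal oligopyrimidine mRNAs, 12 were lower and 0 higher, with a median of -0.70, and Npm1, a nucleolar chaperone, had -2.72 ± 0.30. Of 76 mitochondrial ribosome genes, 54 were lower and 3 higher, with a median of -1.50. Of 18 ribosome rescue and translation repression genes 5 were higher and 4 lower, shares no larger than those over all genes. Eif4ebp1, an inhibitor of cap-dependent translation, changed by 2.41 ± 0.23 (edgeR adjusted p 1.85e-06), and Abce1, which recycles ribosomes, by -2.01 ± 0.30. Of the small subunit partners outside the name rule, Fau rose by 1.41 ± 0.26 and Rack1 fell by 1.39 (edgeR adjusted p 0.000430 and 0.000138).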

How the data were processed

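UMI counts per gene and barcode were used as deposited by the authors, as whole numbers with no scaling. The build was mm10, per the submitters' processing notes, and base calls used BCL Convert 3.6.3, per the labels' protocols. For alignment, annotation and cell calling, the tool is not given in the sources used here. Sample tag libraries and 1 library with no group in the labels were not analysed here.

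Cells with at least 200 UMIs, 100 genes and under 20% mitochondrial UMIs were kept. Cells meeting gates of 2 lineages, or a lymphocyte or macrophage gate with neutrophil levels of S100a8 and S100a9, were set aside as mixed (220 and 213 cells) and no doublet caller was run. A further 5088 and 5504 cells were left unclassified, because they met no gate or had at least 10 UMIs of Jchain, a plasma cell marker. Lymphocytes and macrophages needed at least 3 UMIs of their gate genes.

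UMIs were summed per pool and class into 12 sums and fitted with edgeR 4.0.16 in R 4.3.3 (two-sided quasi-likelihood test with a pool block, filterByExpr and TMM, Benjamini-Hochberg over all 10472 tested genes, threshold 0.05). The pool is the shared source of its sums, so it pairs them. A second fit used the family's summed UMIs as library size. The SE of an edgeR change was worked back as its size over the square root of the test's F statistic. DESeq2 1.42.0, total UMIs, no block, no filter, doubled gates, at least 500 UMIs, single sums left out and subsets of cycling and mature cells were alternatives. Both fits were tested on simulated data in which all classes shared a mean profile apart from few changed genes, none of them members. There they returned the size of the changes with few false calls, and called most 4-fold but a minority of 2-fold changes. A member not called may therefore have changed. Whether changes are recovered when many genes or the family total shift, as between these classes, was not tested. A first pass mark that asked for most 2-fold changes to be called was not met, and it was replaced by one on the size of changes and on false calls.

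Named members were, in each comparison, the 3 highest and 3 lowest family-scaled changes past the threshold with the same direction in both pools and at least 100 UMIs, plus fixed paralog pairs, stalk genes, Rpsa and the 3 largest and 3 smallest shares in mature cells. Members, lists and rules were chosen with earlier results of these data known. Figures used matplotlib 3.10.9, and tables pandas 2.3.3 with Python 3.11.15.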

Additional observations from a re-analysis of the deposited data

Results flagged for a closer look

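Rows outside the name rule held signal that no comparison used. The 8 ribosomal protein pseudogenes by name held 6887 UMIs in kept cells, of which Rpl13a-ps1 held 4537, and Rps27rt, another copy of Rps27, held 2545. Reads of near-identical copies can be split between rows, so Rpl13a and Rps27 values are uncertain to that extent.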

How the results depend on the processing

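Cycling cells limited to those with at least 10 UMIs of Ngp (chosen after the data were seen) gave 9 members higher and 31 lower in mature against cycling cells, 1 higher and 37 lower with 12 departing in Ltf-high against cycling cells, and a cycling share of 3.21%. Total UMIs gave 2 higher and 76 lower in mature against cycling (17.9% and 49.7% of all genes) and 79 lower in Ltf-high against cycling (41.7%). They gave 2 lower in Ngp-positive against Ltf-high (1.68%) and 15 higher in mature against Ngp-positive (5.34%). Against mature, 1 was lower in lymphocytes (15.1%) and 1 in macrophages (15.5%). DESeq2 gave 3 higher and 76 lower in mature against cycling (19.5% and 45.2% of all genes) and 77 lower in Ltf-high against cycling (33.1%). It gave 14 lower in Ngp-positive against Ltf-high (2.59%), 11 higher in mature against Ngp-positive (4.17%) and 1 lower in lymphocytes against mature (18.8%). Without the replicate block, mature against Ngp-positive had 10 higher and 0 departing, and lymphocytes against mature 1 lower; it changed no other count by over 1.5 times. With no filter there were 1 higher in Ltf-high against cycling, 7 lower and 2 departing in Ngp-positive against Ltf-high, and 49 higher and 1 departing in mature against Ngp-positive. Doubled gates gave 1 higher, then 1 lower and 1 departing, and 6 departing in the same 3 comparisons, and mature cells under 2000 UMIs gave 5 departing in the last.

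Leaving out 1 sum gave, in Ltf-high against cycling, 0 to 2 higher, 39 to 62 lower and 18 to 31 departing. It gave 0 to 10 lower and 0 to 1 departing in Ngp-positive against Ltf-high, and 1 to 53 higher and 0 departing in mature against Ngp-positive. It gave 1 to 2 lower in lymphocytes against mature, and 39 to 62 higher and 26 to 34 departing in macrophages against mature.

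Shares without mitochondrial and gate genes were 6.57% in cycling, 2.51% in Ltf-high, 1.78% in Ngp-positive and 2.44% in mature cells and 13.1% in lymphocytes. Medians of cells were 3.83%, 1.65%, 1.25%, 1.94%, 11.3% and, in macrophages, 6.42%. Thinned to 500 UMIs, cycling, Ltf-high and mature cells and lymphocytes held 4.99%, 1.83%, 2.10% and 11.8%. Doubled gates gave 5.29% in cycling cells, 1.97% in mature cells and 11.6% in lymphocytes, mature cells under 2000 UMIs held 1.98%, and with mixed cells kept lymphocytes held 10.7% and macrophages 6.26%. With TMM replaced, Rps27a reversed to -0.50 in Ltf-high against cycling (total UMIs), and in lymphocytes against mature Rps9 reversed to 0.40 and 0.087 and Rps27a to 1.01 and 0.70 (total UMIs and DESeq2, which moved all genes by 1.02 and 0.72 there, and total UMIs by -0.58 in Ltf-high against cycling). Of 65 named values, 48 kept direction and side of the threshold under all alternatives run. The cause of the other changes was not tested. Apart from those with total UMIs and DESeq2, counts of members in this section have no share of all genes from the same setting beside them.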

Other observations

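The family's share of summed UMIs lay between 2.13% and 2.60% in all subsets of mature neutrophils read by 5 marker sets, and in those without them. Cells with at least 3 UMIs of the interferon-induced Ifit1, Rsad2 and Isg15 held 2.60% in YO1 and 2.15% in YO2, against 2.29% and 2.22% in the other mature cells. Cells with at least 3 UMIs of Il1a, Ccrl2 and Nr4a3 held 2.40% and 2.27%, against 2.32% and 2.20%. Cells with at least 3 UMIs of Tnfsf14, Scnn1a and Slc40a1 held 2.52% and 2.28%, against 2.24% and 2.13%, higher in both pools. Cells with at least 3 UMIs of Stfa2l1 and Asprv1 held 2.41% and 2.20%, against 2.28% and 2.22%. Cells with at least 20 UMIs of Mmp8 and Retnlg held 2.24% and 2.28%, against 2.37% and 2.18%. The direction of these summed shares differed between the pools for the interferon, Stfa2l1 and Mmp8 sets. By the median cell, those sets and the Il1a set were lower than the other mature cells in both pools. The Mmp8 set held 1.69% and 1.81%, against 2.04% and 1.99%, and the Il1a set 1.84% and 1.84%, against 1.94% and 1.96%. Only the Tnfsf14 set was higher in both by the median cell. Cells of each set also had more UMIs at the median than the others. No test of these differences was made.

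Cells left unclassified held 6.72% and 5.32% of UMIs on the family, and mixed cells 5.44% and 6.25%.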
